A study of Mus musculus with 2 samples.

Results

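The 30 hairpins described here form the imprinted miR-379-410 cluster, the distal of the 2 microRNA clusters of the Dlk1-Dio3 domain on mouse chromosome 12. They were taken by gene symbol from the 1973 microRNA genes counted in the forebrain of newborn mice, a rule that reads no count, though the cluster was singled out with earlier results of these data known. Their annotated ends span chromosome 12 from 109709060 to 109743795 (GRCm38, 34.7 kb), with gaps between neighbours of 0.05 to 5.57 kb and a median gap of 0.66 kb. The cluster is often named after the noncoding gene Mirg, but the GENCODE M21 annotation places Mirg from 109729764 to 109749460. By that annotation 18 of the hairpins, from Mir379 to Mir539, lie upstream of Mirg, and 12, from Mir382 to Mir410, lie inside it, 8 overlapping an exon and 4 in introns. Small RNA was sequenced from 2 pups of strain B6NCrl at postnatal day 0, each a single forebrain and a single library, here called pup 1 and pup 3 after their labels. Both pups belong to 1 group, so the design holds no contrast between conditions. The labels name separate pups under the same donor record, and sex was not recorded.

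The maternal copy of the domain is transcribed into long noncoding RNAs, among them Meg3, Rian and Mirg, while the paternal copy carries the active coding genes Dlk1 and Rtl1. The hairpins are cut out of the maternal transcripts by Drosha and Dicer, and each can yield a mature strand from its 5p and from its 3p arm. In neurons the cluster is known for activity-dependent expression under Mef2 and for roles in dendrite growth, spine size and synaptic scaling. A mature microRNA finds its targets mainly through its seed, bases 2 to 8 from the 5′ end.

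The mature sequences of the 12 most abundant hairpins are shown because they carry most of the cluster's reads and because their seeds show how the hairpins are related. They come from RefSeq (GRCm38.p6), with the seed in capitals. All 30 hairpins matched an entry, 26 with both arms, and Mir376c, Mir487b, Mir539 and Mir485 with 1 arm. The 56 mature sequences held 54 different seeds. The first group holds the first and second hairpins of the cluster along the chromosome. Their 3p arms share the seed AUGUAAC. Their 5p seeds differ by 1 substitution, G2A from miR-379-5p to miR-411-5p (position counted from the 5′ end):
miR-379-5p: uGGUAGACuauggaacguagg
miR-411-5p: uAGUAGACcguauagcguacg
miR-379-3p: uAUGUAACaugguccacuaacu
miR-411-3p: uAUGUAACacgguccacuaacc

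The second group holds hairpins in which the seeds of 2 arms differ by a single base. The seeds of miR-300-3p and miR-381-3p differ by G4A, those of miR-154-3p and miR-369-3p by C4A, and those of miR-487b-5p and miR-409-5p by U7C:
miR-300-3p: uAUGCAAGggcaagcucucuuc
miR-381-3p: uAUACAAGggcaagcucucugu
miR-154-3p: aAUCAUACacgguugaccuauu
miR-369-3p: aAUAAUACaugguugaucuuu
miR-487b-5p: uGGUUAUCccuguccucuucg
miR-409-5p: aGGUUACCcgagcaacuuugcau

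The remaining arms of these hairpins, and both arms of miR-380, miR-376a, miR-382 and miR-541, are given to show how far the seeds of abundant members diverge:
miR-300-5p: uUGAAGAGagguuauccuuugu
miR-381-5p: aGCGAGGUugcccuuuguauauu
miR-154-5p: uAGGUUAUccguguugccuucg
miR-369-5p: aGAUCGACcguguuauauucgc
miR-409-3p: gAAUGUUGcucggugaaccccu
miR-380-5p: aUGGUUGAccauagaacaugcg
miR-380-3p: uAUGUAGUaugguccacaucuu
miR-376a-5p: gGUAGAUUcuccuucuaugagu
miR-376a-3p: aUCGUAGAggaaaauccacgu
miR-382-5p: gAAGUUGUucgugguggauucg
miR-382-3p: uCAUUCACggacaacacuuuuu
miR-541-5p: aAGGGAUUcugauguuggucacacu
miR-541-3p: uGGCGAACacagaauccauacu

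Among all 56 sequences, 25 had a seed that was 1 base away from the seed of another member, in 25 pairs. Of these pairs, the one formed by miR-485-3p and miR-154-3p differed by G2A. Among these 56 sequences, only 2 seeds were shared exactly by different members, AUGUAAC of the pair above and GGUUGUC of miR-494-5p and miR-410-5p. The other arms of Mir376c, Mir487b, Mir539 and Mir485 had no entry and were not compared. Shared or near seeds on those arms would be missed. The deposited counts pool the arms of a hairpin, so the levels given next cannot be divided between 5p and 3p sequences.

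The libraries were of similar depth, with 9037087 reads assigned to microRNA genes in pup 1 and 7678662 in pup 3, 40.2% and 40.8% of all reads. Reads tallied as mapping to several places made up 43.0% and 43.5% and are in no gene's count. The labelled tissue was checked against known markers: the brain-enriched Mir137 stood at 24345 and 33595 counts per 1000000 assigned reads (CPM) in pup 1 and pup 3, while the Hox-cluster hairpins, which mark tissue behind the forebrain, summed to 196 and 148 CPM over 6 genes. Of the 7 neuronal hairpins listed, 6 lay above every Hox-cluster hairpin in both pups. The exception, Mir124a-1 of the brain-specific miR-124 family, stood at 4.98 and 14.7 CPM, below Mir10a (83.9 and 47.5) and Mir10b (96.2 and 94.3). With reads that map to several places left out, hairpins with copies elsewhere, such as Mir124a-1 and Mir196a-1, may be undercounted.

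All 30 hairpins had at least 10 reads in each pup, as did 21.9% of the 1973 genes. Together they took 9.30% of the assigned reads in pup 1 (exact 95% Clopper-Pearson interval 9.29 to 9.32) and 5.84% in pup 3 (5.83 to 5.86), a mean of 7.57% ± 2.45 (SD, n = 2). These intervals cover counting error only, since reads without molecular identifiers are not independent molecules. A mean of 1000 CPM or more was reached by 12 of the 30 hairpins, against 5.17% of all genes. Mature microRNAs are of nearly equal length, so CPM was compared between hairpins without dividing by length. Other differences in how readily a sequence enters a library were not corrected, so the levels are levels of reads.

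Mir487b was by far the most abundant hairpin of the cluster. It lies on chromosome 12 from 109727333 to 109727414, upstream of annotated Mirg, and stood at 37790.2 CPM in pup 1 and 22042 CPM in pup 3 (29916 ± 11136 CPM). That was 40.6% of the cluster's reads in pup 1 and 37.7% in pup 3. Next came Mir411, the second hairpin of the cluster, from 109710175 to 109710256, with 7734 CPM in pup 1 and 6379.6 CPM in pup 3. The values of these leading hairpins did not overlap between each other, and in both hairpins pup 1 was the higher.

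Below them stood Mir376a, Mir382, Mir369 and Mir381, whose pup values overlapped along the order. Mir376a, a microRNA known to be edited by adenosine deaminases in its seed, was counted under Gm25252 and stood at 7609 CPM in pup 1 and 4569 CPM in pup 3. Mir382, which overlaps an exon of Mirg, stood at 6569.6 and 4106 CPM. Mir369, one of the members known to repress N-cadherin in newborn neurons of the cortex, stood at 6946 and 3479.8 CPM. Pup 1 was the higher in each of these, and the gap was widest in Mir369. Mir381, which acts with Mir134 and Mir329 in dendrite growth, stood at 4853 and 3594 CPM.

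The other 6 hairpins above 1000 CPM lay between 1078 and 3051 CPM on the mean of the pups. Mir409, counted under Gm24321, stood at 3631 CPM in pup 1 and 2472 CPM in pup 3. Mir379, the first hairpin of the cluster, stood at 3655 and 2274 CPM. Mir154, from an intron of Mirg, stood at 2076 and 1639 CPM. In all 3 of these pup 1 was the higher. Mir541, in another Mirg intron, stood at 2069.7 CPM in pup 1 and 2340.1 CPM in pup 3, and was the only hairpin above 1000 CPM with a higher CPM in pup 3. Mir380, whose 5p product is known to repress Trp53, was counted under Gm25750 and stood at 1709.5 and 563 CPM. Mir300, the close relative of Mir381, stood at 1189 and 968 CPM.

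Several hairpins with well-described synaptic roles were in the middle of the range, while Mir381, named above for dendrite growth, stood higher. Mir134, which limits spine size through Limk1, stood at 952 CPM in pup 1 and 462 CPM in pup 3. Mir485, a regulator of the presynaptic protein Sv2a, stood at 437 and 243 CPM, and Mir329 at 344 and 253 CPM. In each of these pup 1 was the higher. Mir496a and Mir543, which with Mir369 are known to act on N-cadherin, stood at 947 and 324 CPM and at 341 and 257 CPM. In all, 13 hairpins lay between 100 and 1000 CPM. The others of these, Mir323, Mir376c, Mir299a, Mir410, Mir495, Mir668, Mir667 and Mir666, had means from 153 CPM in Mir666 to 995 CPM in Mir323.

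The 5 scarcest hairpins lay under 100 CPM. They were Mir494 at 97.3 ± 1.85 CPM, Mir412 at 89.9 ± 17.7, Mir377 at 65.9 ± 1.06, Mir758, a repressor of Abca1, at 62.2 ± 17.6, and Mir539 at 59.7 ± 13.8 CPM. Mir412 had counts of 925 in pup 1 and 594 in pup 3, so these levels are low beside the other members and do not rest on single reads. From Mir539 to Mir487b the means spanned 501-fold.

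**Figure D1:**
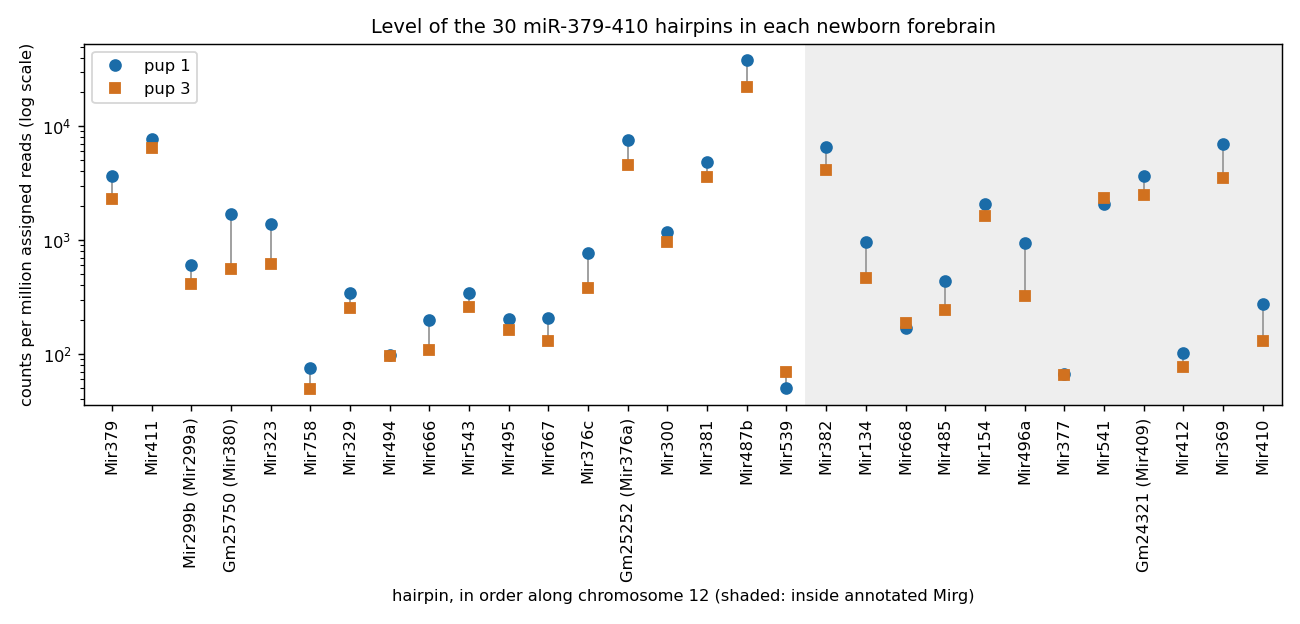
Level of each of the 30 hairpins in CPM (log axis), in order along chromosome 12, with 1 point for each pup and a line joining the pups. Mir487b stands highest in both pups, and high and low hairpins alternate on both sides of the border of annotated Mirg (shaded).

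In the order of mean levels, 26 of the 29 pairs of neighbours had pup values that overlapped. The 3 pairs that stood apart were Mir487b over Mir411, Mir666 over Mir494 and Mir412 over Mir377. The order itself was alike in both pups, with a Spearman's rho of 0.98 over the 30 hairpins, given as a description since all points of a pup share a library. Mir487b, Mir411 and Mir376a held ranks 1, 2 and 3 in both pups. These 3 together took 57.1% of the cluster's reads in pup 1 and 56.5% in pup 3, and the 10 most abundant took 89.1% and 90.5%. The 15 least abundant took 4.24% and 4.47%.

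Shares within the cluster do not depend on how the libraries are scaled, and 16 were larger and 14 smaller in pup 3. At least 1.5-fold larger shares in pup 3 were found in 5 members, Mir539, Mir541, Mir668, Mir494 and Mir377. At least 1.5-fold smaller ones were found in 2, Mir380 and Mir496a. Shares of the cluster do not exist for other genes. By the scaled ratios given below, 15.5% of all genes that averaged at least 10 CPM were 1.5-fold lower and 17.4% higher. Those ratios are another measure, since a share is taken of a cluster total that was itself lower in pup 3. Mir494 stood at 98.6 and 96.0 CPM in pup 1 and pup 3, and Mir377 at 66.6 and 65.1 CPM, so their larger shares are not higher levels. The share of Mir411 was 8.31% in pup 1 and 10.9% in pup 3, and that of Mir541 was 2.22% and 4.0%. Mir539 had 0.0536% and 0.119%, and Mir668 0.180% and 0.317%. Mir494 had 0.106% and 0.164%, and Mir377 0.0716% and 0.111%. All 6 of these took larger shares in pup 3. Mir380 took 1.84% in pup 1 and 0.963% in pup 3, and Mir496a 1.02% and 0.554%. Mir369 took 7.47% and 5.95%, and Mir323 1.48% and 1.05%. Mir382 and Mir379 kept shares close to each other, with 7.06% and 7.03% for Mir382 and 3.93% and 3.89% for Mir379.

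**Figure D2:**
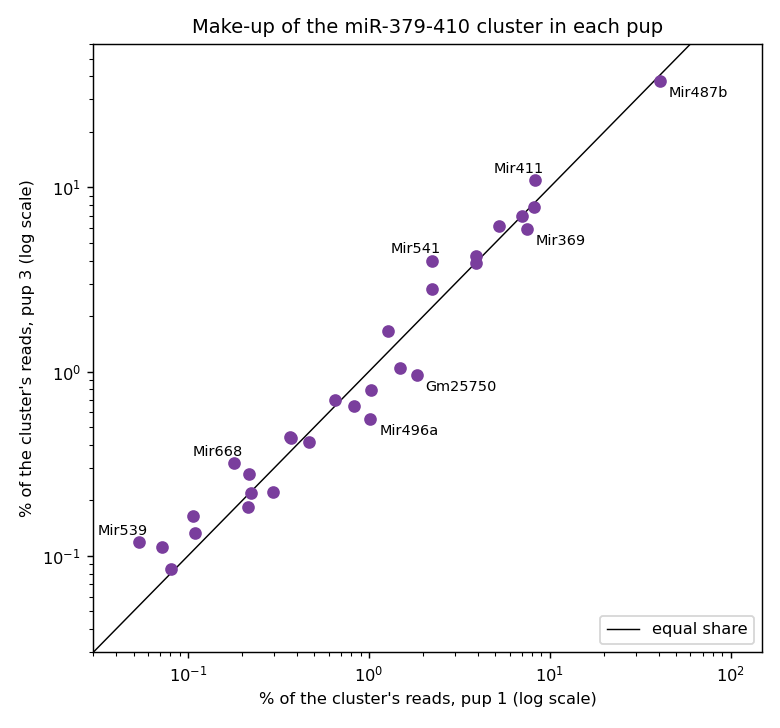
Share of the cluster's reads taken by each of the 30 hairpins in pup 1 (x axis) and pup 3 (y axis), in percent on log axes, with the line of equal shares. Mir541, Mir539 and Mir668 lie above the line, and Gm25750 (Mir380) and Mir496a lie below it.

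The strand of the reads mattered for 4 members. Mir299b, Gm25750, Gm25252 and Gm24321 are annotated on the minus strand, and the reads counted at them lay on the plus strand, where the annotation places Mir299a, Mir380, Mir376a and Mir409. For these the column of opposite-strand reads was used. Mir299b had 3 reads on its own strand in each pup, against 5477 and 3152 on the strand of Mir299a. No other member had a read on the other strand in either pup, so 29 of 30 hairpins were read from a single strand, which for all 30 was the plus strand in nearly every read.

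Mir299a and Mir299b are opposite strands of 1 near-palindrome, and their mature sequences are shown because the shorter ones lie whole inside the longer ones:
miR-299a-5p: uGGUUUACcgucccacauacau
miR-299b-5p: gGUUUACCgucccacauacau
miR-299a-3p: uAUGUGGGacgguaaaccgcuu
miR-299b-3p: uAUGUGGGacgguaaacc

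A read that holds only the shorter sequence fits both strands of this place, and the counts leave out reads with more than 1 alignment. The level of Mir299a, 508 ± 138 CPM, is therefore uncertain. These sequences were chosen for display after the counts were seen. None of the 56 mature sequences of the members was found whole in a hairpin at another place among 2202 annotated hairpins, on either strand. Stretches of 20 nucleotides or more were shared between hairpins by 4 members. They were Mir411 with Mir758, and Mir376c and Mir487b each with Mir376b, a hairpin not analysed here. Counts of these 4 could be affected where reads lie wholly inside the shared stretch.

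The cluster was lower in pup 3 than in pup 1, with a lower CPM in 27 of 30 hairpins, against 65.8% of all genes with a mean of at least 10 CPM. Ratios of pup 3 over pup 1, taken after 0.5 was added to each count and scaled by the trimmed mean of M values (TMM) of edgeR, compare 2 libraries with no replicate check. The median log2 ratio of the 30 hairpins was -0.37, a fold of 0.772, and stayed below 0 under the other scalings tried, at -0.36 with DESeq2 size factors and -0.57 with total counts. Over those 310 genes the median was -0.03. Of the members, 9 were at least 1.5-fold lower and 1 was at least 1.5-fold higher, where 15.5% of all genes were lower and 17.4% higher by that rule. Under total counts, which moved the median of all genes by -0.20, 15 members were lower and 0 higher, against 23.5% and 12.3% of all genes. At a log2 threshold of 0.32, 17 members were lower and 3 higher, against 28.1% and 27.7% of all genes. In whole tissue, fewer cells of a type and less of the RNA per cell cannot be told apart.

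Counting error was small beside these ratios. The exact 95% binomial interval lay below 0 for 25 members, against 44.8% of all genes, and above 0 for 4, against 41.3%, and for Mir377 it held 0. Such intervals do not include the spread between animals. The biological coefficient of variation over 301 genes, which include the members, was 0.304, and it corresponds to an SD of 0.62 for the log2 ratio of a single gene. By that measure 20 members lay within 1 SD of 0, 9 lay more than 1 SD below and 1 lay more than 1 SD above, while 31.3% of all genes lay more than 1 SD from 0.

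**Figure D3:**
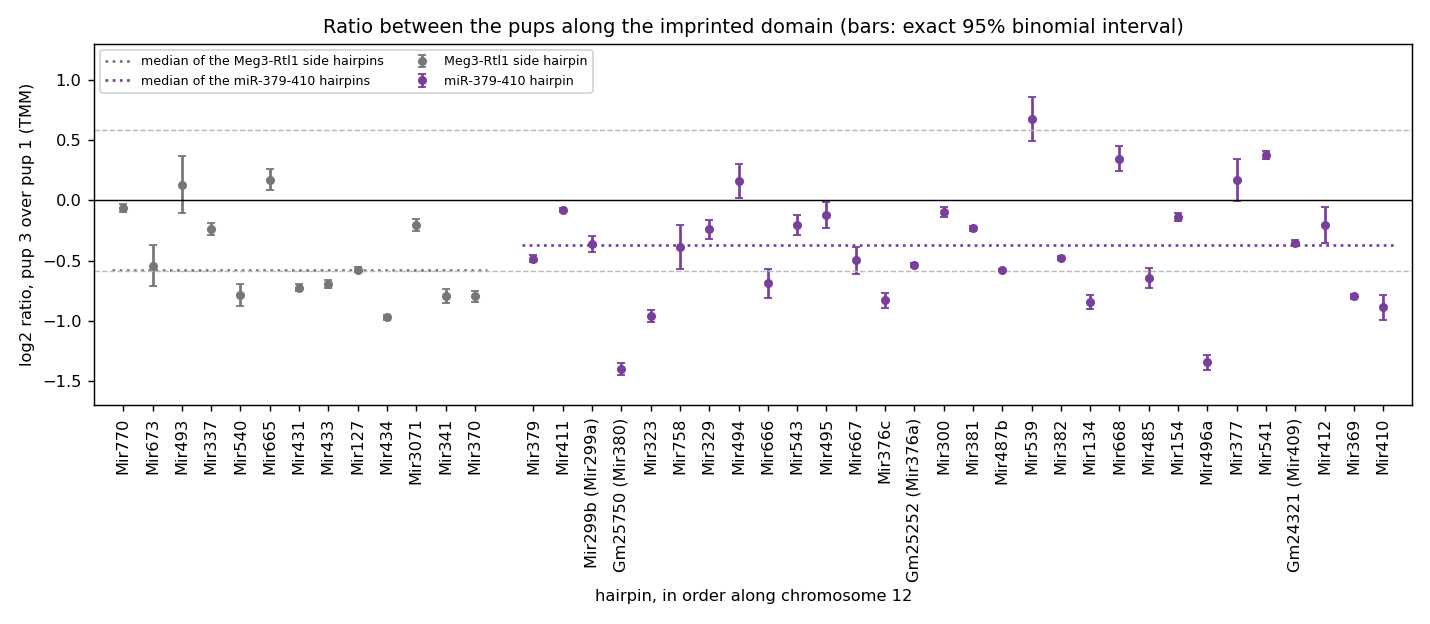
Log2 ratio of pup 3 over pup 1 (TMM scaling) for the 13 Meg3-Rtl1 side hairpins that averaged at least 10 CPM and for the 30 miR-379-410 hairpins, in order along chromosome 12. Bars are exact 95% binomial intervals for counting error, dotted lines are the medians, and dashed lines mark 1.5-fold. Most points lie below 0, and under total counts every point is lower by 0.20, which takes Mir494, Mir377, Mir493 and Mir665 below 0.

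The lowest ratios belonged to Mir380 and Mir496a. Mir380, counted under Gm25750, had 15449 reads in pup 1 and 4321 in pup 3, a log2 ratio of -1.40 (-1.45 to -1.35). Mir496a, with 8554 and 2487 reads, had -1.35 (-1.41 to -1.28). These were the only members more than 2-fold lower, where 3.87% of all genes were, and no member was more than 2-fold higher, where 7.74% of all genes were. Mir323 followed, with 1374 CPM in pup 1 and 615 CPM in pup 3 and a log2 ratio of -0.96 (-1.01 to -0.91). The other members at least 1.5-fold lower were Mir410 (-0.89), Mir134 (-0.84), Mir376c (-0.83), Mir369 (-0.80), Mir666 (-0.69) and Mir485 (-0.64). Members named above for a like role differed among themselves. Of the dendrite and synapse regulators, Mir134 and Mir485 were among these 9, while Mir329 had -0.24 (-0.32 to -0.16) and Mir381 -0.23 (-0.25 to -0.21). Of the N-cadherin regulators, Mir369 and Mir496a were among them, and Mir543 had -0.21 (-0.29 to -0.13).

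Of the abundant hairpins, Mir487b had a log2 ratio of -0.58 (-0.59 to -0.57), just short of 1.5-fold lower. Mir376a had -0.54, Mir379 -0.48 and Mir382 -0.48. Mir409 had -0.35, Mir381 -0.23 and Mir154 -0.14. Mir411 and Mir300 were the closest to 0 of those above 1000 CPM, at -0.08 (-0.09 to -0.06) and -0.10 (-0.14 to -0.05).

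Ratios above 0 were found in 5 of the 30 members, against 149 of the 310 genes that averaged at least 10 CPM. Of the 5, Mir494 (0.16) and Mir377 (0.17) lay below 0 under total counts, at -0.039 and -0.033. Mir539 had 451 reads in pup 1 and 533 in pup 3, a log2 ratio of 0.68 (0.49 to 0.86), and 0.48 under total counts. Mir541 had 18704 and 17969 reads and a log2 ratio of 0.38 (0.35 to 0.41), and 0.18 under total counts. Mir668 had 1515 and 1424 reads and a log2 ratio of 0.35 (0.24 to 0.45), and 0.15 under total counts. The intervals of these 3 lay apart from those of Mir380, Mir496a and Mir323. These hairpins were picked as the highest and lowest ratios, and the intervals treat reads as independent, so the gap is a description only.

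Hairpins on both sides of the border of annotated Mirg were lower on the median. The 18 hairpins upstream had a median log2 ratio of -0.37, with 4 at least 1.5-fold lower and 1 higher, and the 12 inside had -0.42, with 5 lower and 0 higher, against 15.5% of all genes lower and 17.4% higher. The upstream hairpins took 5.59% ± 1.83 of all assigned reads and those inside 1.99% ± 0.616 (SD, n = 2), and most of the upstream share was Mir487b.

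Neighbouring hairpins at the distal end show how much levels and ratios vary over a short distance. Mir412 and Mir369 lie 0.05 kb apart inside Mirg, where both overlap an exon, and stood at 89.9 and 5213 CPM on the mean of the pups, with log2 ratios of -0.20 and -0.80. Mir410, 0.22 kb further on, stood at 202 CPM with -0.89, and Mir409, 0.05 kb before Mir412, at 3051 CPM with -0.35. Across the 30 hairpins, position along the chromosome had a Spearman's rho of 0.0029 with the mean level and 0.06 with the log2 ratio. For hairpin GC content, from 29.1% to 64.6%, rho was -0.13 and -0.14, and for predicted folding energy per nucleotide it was 0.18 and 0.20. The rho of the mean level with the log2 ratio was -0.25. These are descriptions over hairpins of a shared locus and shared libraries.

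Members whose arms with an entry share a seed or have seeds 1 base apart formed 26 pairs of hairpins. The counting intervals of the ratios overlapped in 4 pairs and lay apart in 22. The same count over all pairs of members was not made, so it cannot be read as particular to seed-related pairs. The 4 with overlap were Mir299a with Mir758, Mir379 with Mir758, Mir412 with Mir758 and Mir323 with Mir410. Both pairs found to share a seed, and the abundant pair Mir300 and Mir381, were among the 22. Mir379 and Mir411, which share the seed AUGUAAC, had log2 ratios of -0.48 and -0.08. Mir410 and Mir494, which share GGUUGUC on their 5p arms, stood at 202 and 97.3 CPM and had -0.89 and 0.16. Mir300 and Mir381, with seeds 1 base apart, stood at 1078 and 4224 CPM and had -0.10 and -0.23. Counts pool the arms, so these values describe hairpins and not the strands that carry the seeds.

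The proximal hairpins of the same domain, from Meg3 past those antisense to Rtl1 into Rian, were also lower in pup 3. Of the 18 listed hairpins found in the tables, 15 had at least 10 reads in each pup, and the 18 took 2.22% ± 0.881 of the assigned reads (SD, n = 2), less than the 7.57% of the miR-379-410 hairpins. The 13 of these that averaged at least 10 CPM had a median log2 ratio of -0.57, with 6 at least 1.5-fold lower and 0 higher, against the same 15.5% and 17.4% of all genes, and with 8 lower under total counts (23.5% of all genes). Of the 13, 11 lay below 0 and 2 above, while of all 310 genes 161 lay below 0 and 149 above. The 2 were Mir493 at 0.13 and Mir665 at 0.17, and both turn below 0 under total counts. Mir127, a repressor of Rtl1, had 8179 and 4780.3 CPM, and Mir434, of the same group, had 7635 and 3389 CPM. The log2 ratio was -0.57 in Mir127 and -0.97 in Mir434. The 264 genes outside the domain's lists had a median of 0.04. No test was made between these lists, since each pup is a single library.

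Other hairpins lie between Mir379 and the end of Mirg and are not members. Mir1193, whose 5p arm has the same seed as miR-379-5p, had 550.3 and 237 CPM and a log2 ratio of -1.01 (-1.09 to -0.94). Mir679 had 48.9 and 36.5 CPM and -0.22, Mir3072 had 40.1 and 29.6 CPM and -0.24, and Mir1197 had 92 reads in pup 1 and 20 in pup 3. Each of these 4 had a lower CPM in pup 3. Mir544, added to these after its values were seen, had 234 and 97 reads.

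**Figure D4:**
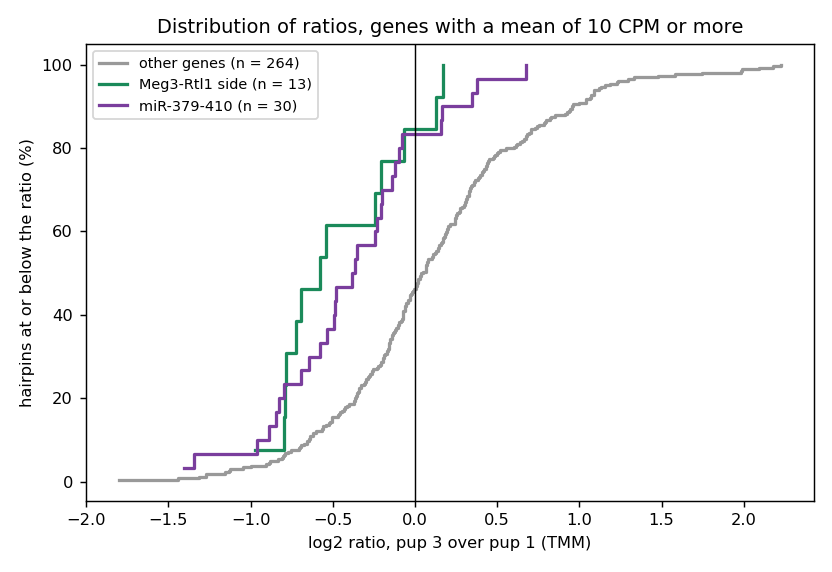
Cumulative share of hairpins (y axis, percent) at or below each log2 ratio of pup 3 over pup 1 (x axis, TMM scaling), for genes that averaged at least 10 CPM. The 30 miR-379-410 hairpins and the 13 of the Meg3-Rtl1 side run to the left of the 264 other genes over most of the range, at medians of -0.37, -0.57 and 0.04.

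Hairpins that mark other cells differed between the pups as well. Of all 310 genes that averaged at least 10 CPM, 149 had ratios above 0 and 161 below, to set beside the lists that follow. All 10 of an epithelial and sensory list (the miR-200 and miR-183 groups, Mir203 and Mir205) had ratios above 0, 8 of them at least 1.5-fold (17.4% of all genes), and their summed level was 6157 CPM in pup 1 and 14530.0 CPM in pup 3; under total counts Mir203 turns below 0. Of 7 neuronal hairpins, 6 averaged at least 10 CPM and all 6 lay above 0, 5 of them at least 1.5-fold, against 17.4% of all genes, with summed levels of 33529 and 46115 CPM. Under total counts all 6 stayed above 0 and 3 were at least 1.5-fold higher, against 12.3% of all genes. Neuronal hairpins outside this list went both ways. The log2 ratio was -0.64 in Mir129-1, -0.91 in Mir129-2, -0.46 in Mir7-2 and -0.18 in Mir132. It was 0.44 in Mir7-1, 0.39 in Mir7b and 0.18 in Mir218-1. Endothelial Mir126a stood at 40491 and 36865 CPM, with a log2 ratio of 0.06 that turned below 0 under total counts. Endothelial Mir221 and Mir222, not in the marker lists, had 0.44 and 0.41. Of 5 blood and microglial hairpins, 4 lay above 0 and 1 below, with sums of 803 and 1073 CPM. The choroid plexus and multiciliated list had 1 above 0 and 3 below among the 4 that passed 10 CPM, with sums of 13902 and 11022 CPM. Muscle hairpins summed to 95.9 and 45.1 CPM, with Mir133a-1, Mir133a-2 and Mir1a-1 at 0 in both pups. Reads mapping to several places are in no gene's count, so values of 0 do not show that these RNAs were absent. The part of these differences between the pups in the lower level of the miR-379-410 hairpins was not tested.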

How the data were processed

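Each deposited table holds read counts per microRNA gene of 1 library, made by the authors on mm10 with annotation M4, per the notes deposited beside each table, with the aligner and counting tool not given in the sources used here. Its 3 count columns have no heading. In all 1973 genes the first is the sum of the others, which were read as the sense and the opposite strand. Members were counted from the first column, and Mir299b, Gm25750, Gm25252 and Gm24321 from the opposite strand. CPM is a count per 1000000 reads assigned to genes, and tallies that name no gene (59.8% and 59.2% of all reads in pup 1 and pup 3) stayed out.

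Names and positions came from GENCODE M21 (GRCm38, the assembly of mm10) and mature sequences from RefSeq. TMM factors (1.07 for pup 1 and 0.933 for pup 3) and the biological coefficient of variation, fitted with an intercept alone to genes that had at least 10 CPM in each pup, came from edgeR 4.0.16 on the whole table. Size factors of DESeq2 1.42.0 were an alternative. Intervals of ratios are exact conditional binomial intervals. No contrast was tested, since 1 group has none. The ratio and spread computations were tested on simulated data. Folding energies came from RNAfold 2.7.2, with R 4.3.3 and Python 3.11.15 used throughout.

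Both pups' values and the ratio are given for members that averaged at least 1000 CPM and for the 3 highest and 3 lowest ratios among those that averaged at least 50 CPM. The members, the lists of neighbouring hairpins and the marker lists were chosen with earlier results of these data known. The alternatives were other scalings, folds, count minimums, strand columns and prior counts, each pup alone, and leaving out Mir487b or members with a shared stretch.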

Additional observations from a re-analysis of the deposited data

How the results depend on the processing

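The median log2 ratio of the 30 hairpins stayed below 0 under each alternative run. It was -0.36 with DESeq2 size factors, -0.57 with total counts, -0.48 over members that averaged at least 100 CPM, -0.36 without members that share a stretch and -0.36 without Mir487b. The 9 members at least 1.5-fold lower in pup 3 became 15 with total counts, 17 at a log2 threshold of 0.32 and 2 at 2-fold. The 1 member at least 1.5-fold higher became 0 with total counts, 3 at a log2 threshold of 0.32 and 0 at 2-fold. Under total counts, which lower every log2 ratio by 0.20, Mir494 turned to -0.039 and Mir377 to -0.033, and the other 28 members kept their sign. The biological coefficient of variation was 0.311 when only genes above 100 CPM in each pup were used. The share of assigned reads held by the cluster was 3.81% without the 4 members that share a stretch, as Mir487b is among them, and 5.84% to 9.30% in either pup alone. All 30 hairpins also passed 1 and 50 counts. Strand columns and a prior count of 1 moved no member's log2 ratio out of its interval. No paired analysis was possible because the labels give 1 group. With 2 pups and a single library of each, the spread between animals rests on 1 difference per gene, and this limits every ratio more than depth does.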
